A study of Rattus norvegicus with 16 samples.

Results

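Genes of the cholesterol synthesis pathway were followed in rat hippocampal slices cultured as intact tissue (organotypic slice cultures) and divided into the CA1 and CA3 fields. The set was defined by name as Hmgcs1, Sqle, Insig1, Fdps, Idi1, Cyp51, Fdft1 and Dhcr7, and its probe sets were taken from the platform annotation of the Affymetrix rat array. Of the 8 genes, 7 had a probe set, 10 probe sets in all, out of 10411 genes and 15866 probe sets tested. Hmgcs1 is not listed in that annotation and its expression was not analysed here. The set holds synthesis enzymes and the sterol regulator Insig1, and none of its members is a receptor or transporter for cholesterol uptake. Uptake genes are therefore described below from a separate list.

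The study measured RNA of CA1 and of CA3 at T0, 30 min, 3 h and 12 h, with 2 biological replicates of each, so that 16 arrays form 8 groups of 2. The series is about oxidative stress. No agent or dose, no place of T0 relative to it and no strain or age of the rats is given in the sources used here, and no group is labelled as untreated at a later time. Time in culture and time under the stress therefore cannot be told apart. The labels call the replicates biological but do not say whether they came from separate animals. The p-values therefore measure the spread between these samples, which may not be that between animals.

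Neurons and glia of the brain make nearly all of their cholesterol locally, because lipoproteins of the blood do not pass the blood-brain barrier in useful amounts. The pathway runs from acetyl-CoA through HMG-CoA and mevalonate to the isoprenoids, then through squalene and lanosterol to cholesterol. When sterols in the endoplasmic reticulum are low, the SCAP protein carries the transcription factor SREBP to the Golgi, where proteases release its active part, and the genes of the pathway are transcribed together. Insig1 and Insig2 hold SCAP back when sterols are sufficient, and Insig1 is itself a target of SREBP.

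SREBP binds sterol response elements, usually beside sites for NF-Y and Sp1, so the promoters of the set were searched for these motifs. RefSeq promoters (assembly GRCr8, from 250 bases before to 50 bases after the start of a gene) were matched by symbol for 6 of the 8 members, Hmgcs1, Insig1, Fdps, Idi1, Cyp51 and Dhcr7. The search used TCACNCCAC for the sterol response element, CCAAT for NF-Y and GGGCGG for Sp1, on both strands. In the windows of the members no match of a motif overlapped a match of another. The Insig1 promoter at chr4:8057720-8058019 (GRCr8, minus strand, printed in the direction of transcription) is shown because Insig1 had the largest difference from T0 of the set at 12 h, which makes it a choice made after the values were seen. The capitals mark the match to CCAAT, which lies on the opposite strand.
Insig1: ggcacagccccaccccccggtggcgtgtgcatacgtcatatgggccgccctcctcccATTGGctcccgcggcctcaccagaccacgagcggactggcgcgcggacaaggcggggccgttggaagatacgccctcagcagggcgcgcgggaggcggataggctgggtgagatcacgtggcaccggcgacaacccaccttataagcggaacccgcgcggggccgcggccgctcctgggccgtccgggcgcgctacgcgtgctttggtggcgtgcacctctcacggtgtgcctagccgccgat
CCAAT was found in 4 of the 6 windows (Hmgcs1, Insig1, Fdps and Idi1), against 37.5% of 33465 promoters of the table. GGGCGG was found in 5 of the 6 (all but Idi1), against 33.1%. TCACNCCAC was found in 0 of the 6, against 1.12%. These are matches of letters within a short window and say nothing of binding.

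The libraries are described by their ranges. The 2 arrays of a group had an r of 0.9107 to 0.9693. A CA1 array and the CA3 array with its time and replicate number, below called a pair, had an r of 0.9632 to 0.9884. The signal of the Bacillus control transcripts was lowest in the replicate 2 pairs of 30 min (4.15 to 4.37) and of 12 h (4.32 to 4.36), against 5.13 to 6.46 in the other 6 pairs. Excitatory neuron markers had array means of 8.5 to 8.86 at 12 h in both regions, against 5.49 to 8.11 at T0. That list also holds Rbfox3, Snap25 and Stmn2, which mark neurons in general, so its values are not particular to excitatory neurons. Of 5 CA1 markers chosen after the data were seen, Wfs1 was higher in CA1 in 8 of 8 pairs, and Mpped1, Fibcd1, Pou3f1 and Ccn3 in 3 to 6 of 8. Grik4, a CA3 marker, was higher in CA1 in 1 of 8 pairs, while the CA3 marker Bok was higher in CA1 in 7 of 8 and Homer3 and Prkcd in 3 of 8.

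No member passed the test in any comparison. The values were log2 expression values and were tested with limma across all probe sets, with an adjusted p under 0.05 as the threshold. Over 19 contrasts, 0 of 133 member values passed and 9 had an unadjusted p under 0.05, which came from Idi1 and Insig1 alone. That was 6.77% of the member values, against 5.4% of the values of all probe sets over the same contrasts. The smallest adjusted p of a member in limma was 0.233. In the limma F test of any change over the 4 times, 0 of the 7 members passed, against 0.403% of all probe sets, and the smallest adjusted p of a member was 0.431. When both arrays of a pair were joined before the limma fit, as differences or as means, 0 of 91 member values passed, with a smallest adjusted p of 0.453.

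The first question was how expression ran over time in both regions together. At 30 min all 7 members had a mean above T0, by a median of 0.41 on the log2 scale, and 0 passed in limma, against 0.107% of all probe sets, whose median was 0. At 3 h the median was -0.08 and 5 of the 7 lay below T0, again with 0 passing, against 0.183% of all probe sets and a median of 0.05 over them. At 12 h the median was 0.18, with 5 above T0, 2 below and 0 passing, against 2.07% of all probe sets and a median of -0.02. The members' arrays were completely apart from those of T0 for Dhcr7 at 30 min (5.55% of all probe sets were), for none at 3 h (6.69%) and for Sqle at 12 h (15.6%), with 4 arrays at each time.

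**Figure D1:**
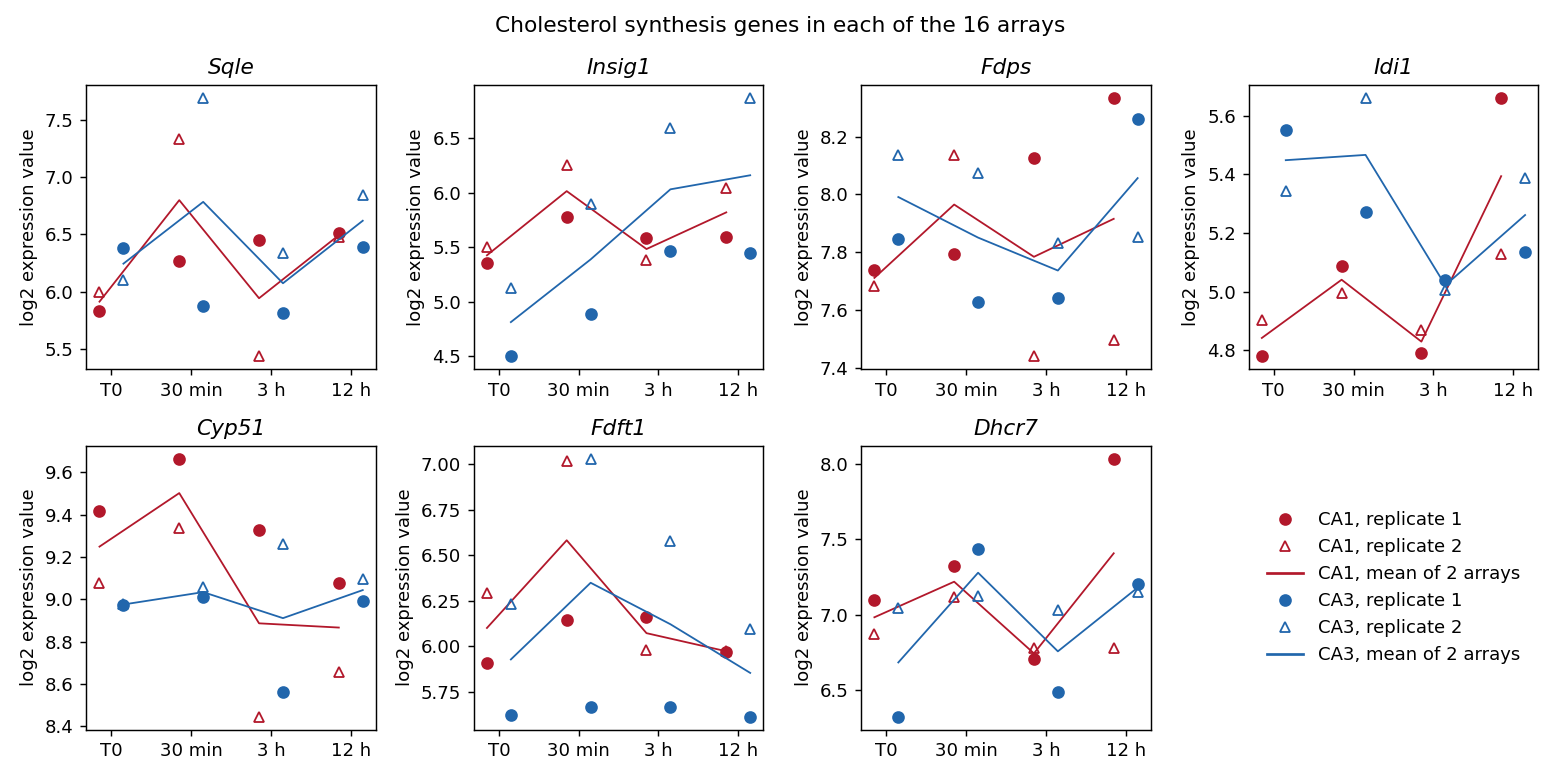
Log2 expression value of the 7 measured members in each array (each panel has its own vertical scale) at T0, 30 min, 3 h and 12 h, with CA1 in red to the left of CA3 in blue, filled circles for replicate 1, open triangles for replicate 2 and lines through the means of 2 arrays. The replicate 2 arrays of 30 min stand highest for Sqle and Fdft1, and Insig1 in CA3 spreads from 5.448 to 6.869 at 12 h.

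Sqle encodes squalene epoxidase, which puts oxygen into squalene and is a control point of the sterol branch. Its log2 values in CA1 were 5.831 and 5.997 at T0, 6.269 and 7.33 at 30 min, 6.448 and 5.44 at 3 h, and 6.513 and 6.475 at 12 h, with replicate 1 first. In CA3 they were 6.384 and 6.107 at T0, 5.877 and 7.692 at 30 min, 5.814 and 6.335 at 3 h, and 6.392 and 6.848 at 12 h. The 2 highest of the 16 arrays were thus the replicate 2 arrays of 30 min, one from each region, while the replicate 1 arrays of that time lay inside the range of T0. At 12 h all 4 arrays were above all 4 of T0, though CA3 replicate 1 by 0.01 only. Over both regions Sqle averaged 6.792 ± 0.859 at 30 min and 6.08 ± 0.233 at T0 (SD, n = 4 arrays each), a difference of 0.71 ± 0.39 (SE; limma adjusted p = 0.779). At 12 h it averaged 6.557 ± 0.2, which is 0.48 ± 0.39 above T0 (limma adjusted p = 0.619).

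Fdft1 encodes squalene synthase, the first enzyme committed to sterols, and its brightest probe set followed Sqle closely at 30 min. Its CA1 values were 5.906 and 6.294 at T0, 6.145 and 7.019 at 30 min, 6.162 and 5.981 at 3 h, and 5.969 and 5.975 at 12 h. Its CA3 values were 5.623 and 6.231 at T0, 5.666 and 7.031 at 30 min, 5.664 and 6.577 at 3 h, and 5.612 and 6.094 at 12 h. Here too the replicate 2 arrays of 30 min were the highest in each region, and replicate 2 was above replicate 1 in 7 of 8 groups. The difference at 30 min was 0.45 ± 0.33 (limma adjusted p = 0.905) and at 12 h -0.1 ± 0.33 (adjusted p = 0.944). The second probe set of Fdft1, with a lower mean of 5.398, ranged from 5.146 to 5.697 over the 16 arrays and differed from T0 by 0.06 at 30 min, so the peak of those arrays is in 1 of the 2 probe sets.

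The replicate 2 arrays of 30 min are also among the 4 arrays with low control transcript signal, and the positive median at that time moved with them. With replicate 2 of 30 min and of 12 h left out, the median of the members at 30 min was 0.0342, with Sqle at -0.00727 and Fdft1 at -0.108. With the control signal as a covariate it was 0.0602. Without the CA3 array of replicate 2 at 30 min alone it was 0.145. Within replicate 1, 5 of the 7 members were above T0 at 30 min, with a median of 0.14, and within replicate 2 all 7 were, with a median of 0.2.

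Insig1, the sterol sensor that keeps SCAP in the endoplasmic reticulum, had the largest difference from T0 among the members at 12 h. Its CA1 values were 5.35 and 5.498 at T0, 5.777 and 6.249 at 30 min, 5.584 and 5.379 at 3 h, and 5.59 and 6.046 at 12 h. Its CA3 values were 4.5 and 5.122 at T0, 4.881 and 5.892 at 30 min, 5.464 and 6.595 at 3 h, and 5.448 and 6.869 at 12 h. In CA3 both arrays of 3 h and of 12 h were above both of T0. The 3 lowest of the 16 values were all from CA3, both arrays of T0 and replicate 1 of 30 min. Over both regions Insig1 averaged 5.988 ± 0.64 at 12 h and 5.117 ± 0.44 at T0 (SD, n = 4 arrays each), a difference of 0.87 ± 0.36 with a 95% interval of 0.07 to 1.67 (limma adjusted p = 0.233, unadjusted 0.036). In the limma fit of pair means the interval of this difference was -0.11 to 1.85 and held 0 (adjusted p = 0.517, unadjusted 0.0731). The arrays of 12 h and T0 overlapped, between 5.448 and 5.498. Within replicate 1 the difference was 0.59 and within replicate 2 it was 1.15, and replicate 2 was above replicate 1 in 7 of 8 groups.

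Over the 11 other settings that gave it, the Insig1 difference at 12 h ran from 0.166 to 0.984 and passed the threshold in 1. With the gap between the 3' and 5' signals of GAPDH, a measure of RNA length, as a covariate it was 0.984 (limma adjusted p = 0.0378), and 2014 probe sets passed in that fit against 328 without the covariate. Over 16 fits that each left out 1 array it ran from 0.515, without CA3 replicate 2 of 12 h, to 1.23, without CA3 replicate 1 of 12 h, and passed in none. Its mean log2 value ranks at 45.4% of all probe sets, and no detection call was available to say how far it stands above background.

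**Figure D2:**
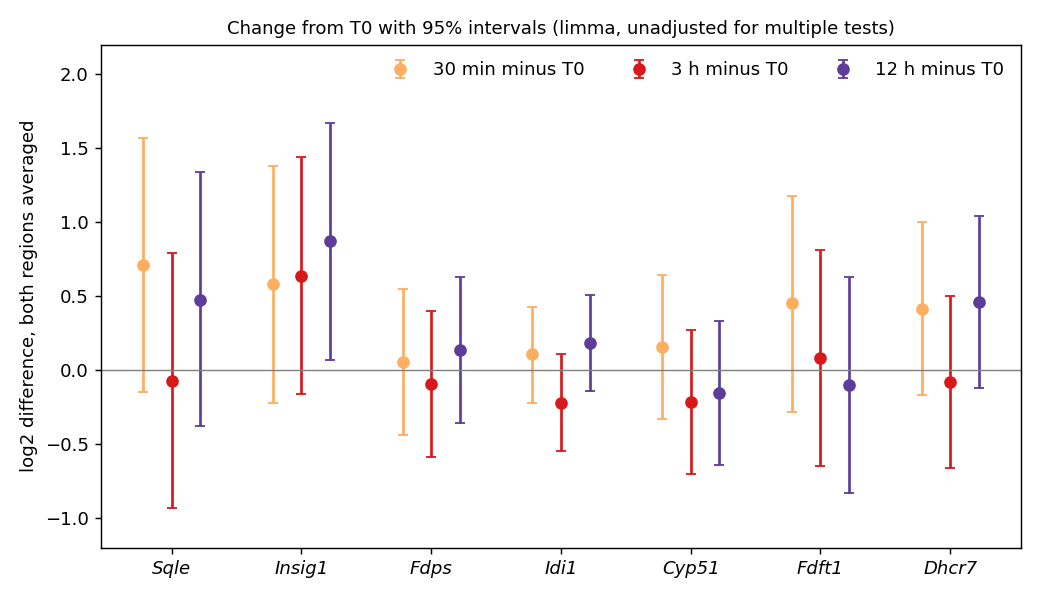
Difference from T0 in log2 expression at 30 min, 3 h and 12 h for the 7 members, averaged over CA1 and CA3, with 95% intervals of limma that are not adjusted for multiple tests. The interval of Insig1 at 12 h, 0.07 to 1.67, is the only one of the 21 that leaves out 0. In the limma fit of pair means that interval was -0.11 to 1.85 and held 0.

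Dhcr7 encodes the reductase that makes cholesterol from its direct precursor, and it averaged 7.248 ± 0.157 at 30 min and 6.833 ± 0.353 at T0 (SD, n = 4 arrays each). Its 4 arrays of 30 min lay between 7.114 and 7.434 and those of T0 between 6.324 and 7.094, so the groups did not overlap, with a difference of 0.41 ± 0.26 (limma adjusted p = 0.86). At 12 h Dhcr7 was 0.46 ± 0.26 above T0 (limma adjusted p = 0.413), a difference of 0.146 without CA1 replicate 1 of 12 h, which at 8.033 was the highest of its 16 values.

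Fdps, the farnesyl diphosphate synthase that builds the precursor of sterols and of prenyl groups on proteins, stayed between 7.44 and 8.334 in all arrays. Its differences from T0 were 0.06, -0.09 and 0.13 at 30 min, 3 h and 12 h, each with an SE of 0.22, and 80% of its variance over the 16 arrays lay between the replicates of a group. Cyp51, the lanosterol demethylase, ran from 8.445 to 9.665 and differed from T0 by 0.16, -0.21 and -0.16 (SE 0.22 each). That probe set is of the kind the array's maker marks as matching several transcripts. The second probe set of Cyp51, which carries no such mark, differed by 0.08, 0.14 and 0.1 (SE 0.13 each), so that the 2 probe sets have opposite signs at 3 h and 12 h.

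Idi1, the isomerase of isopentenyl diphosphate, was the member with the tightest replicates, with 22.8% of its variance between the replicates of a group. It was also the dimmest member, as its mean log2 value ranks at 37.3% of all probe sets, again with no detection call. Its CA1 values were 4.781 and 4.904 at T0, 5.087 and 4.995 at 30 min, 4.79 and 4.87 at 3 h, and 5.661 and 5.127 at 12 h. Its CA3 values were 5.552 and 5.345 at T0, 5.273 and 5.66 at 30 min, 5.039 and 5.005 at 3 h, and 5.134 and 5.389 at 12 h. CA1 started lower than CA3 and ended with its arrays on both sides of those of CA3. The step from 3 h to 12 h over both regions was 0.4 ± 0.15 (limma adjusted p = 0.307), and that from 30 min to 3 h was -0.33 ± 0.15 (adjusted p = 0.535). In the same order the second probe set of Idi1 gave 0.32 ± 0.2 and -0.21 ± 0.2. At these steps 0 of the 7 members passed, against 0.0189% and 0% of all probe sets.

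The second question of the design was whether CA1 and CA3 differ. Averaged over the 4 times, 4 of the 7 members had a higher mean in CA1 and 3 a lower one, the median difference was 0.09, and 0 passed in limma, against 0% of all probe sets (510 of these, or 3.21%, had an unadjusted p under 0.05). In the fit of pair differences 0 members passed as well, against 0.208% of all probe sets. Idi1 had the largest difference, with 5.027 ± 0.286 in CA1 and 5.3 ± 0.235 in CA3 (SD, n = 8 arrays each), and was higher in CA1 in 1 of 8 pairs. That difference was -0.27 ± 0.1 (limma adjusted p = 1, unadjusted 0.0245), or -0.27 ± 0.12 over pairs (limma adjusted p = 0.453). The second probe set of Idi1 gave -0.23 ± 0.14. For the brighter probe set the difference at a single time was largest at T0, at -0.61 ± 0.21 (limma adjusted p = 1), while the second probe set gave -0.19 ± 0.28 at T0 and its largest, -0.61 ± 0.28, at 3 h. At each single time 0 members passed, against 0% of all probe sets.

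The remaining 6 members had intervals that hold 0. Sqle differed by -0.14 (95% interval -0.75 to 0.46), Fdps by -0.06 (-0.42 to 0.29) and Insig1 by 0.09 (-0.48 to 0.65). Cyp51 differed by 0.14 (-0.21 to 0.48), Fdft1 by 0.12 (-0.4 to 0.63) and Dhcr7 by 0.11 (-0.3 to 0.53). The second probe sets had the opposite sign, at -0.06 ± 0.09 for Cyp51 and -0.08 ± 0.09 for Fdft1. The direction given for these 2 genes, here and by replicate number, thus rests on the brighter probe set. With this number of arrays the intervals leave room for differences up to their ends. Oligodendrocytes make much cholesterol for myelin, and the means of their 8 measured markers were lower in CA1 for 8 of 8, with 0 passing and a median of -0.56. The array means of these markers were 6.6 to 7.54 in CA1 and 7.22 to 8.49 in CA3, and their part in the members' values was not tested.

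Averaged over the 4 times, the direction of the region difference went with the replicate number, a split that was looked at after the data were seen. In replicate 1, the mean over the 4 times was higher in CA1 for 6 of the 7 members, with a median of 0.4. In replicate 2 it was lower in CA1 for all 7, with a median of -0.28. The same turn, higher in CA1 in replicate 1 and lower in replicate 2, was seen in 18.1% of all probe sets, and a turn in either direction in 52.3%. Cyp51 differed by 0.49 in replicate 1 and by -0.22 in replicate 2. In the same order Insig1 differed by 0.5 and -0.33, Dhcr7 by 0.43 and -0.2, and Fdft1 by 0.4 and -0.17. Idi1 alone kept its sign, at -0.17 and -0.38. The direction did not hold at every time. In replicate 2, Insig1 differed by 0.38, 0.36, -1.22 and -0.82 at T0, 30 min, 3 h and 12 h. In the same order Cyp51 in replicate 2 differed by 0.1, 0.28, -0.81 and -0.44. Sqle in replicate 1 differed by -0.55, 0.39, 0.63 and 0.12. These values are a description with no test, since the split was chosen after the data were seen. What the numbers mark is not stated in the labels. The gap between the 3' and 5' signals of GAPDH was larger in replicate 2 than in replicate 1 in every group. Over the arrays it ran from 1.292 to 2.179 in replicate 1 and from 2.049 to 3.928 in replicate 2. Its part in the split was not tested.

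**Figure D3:**
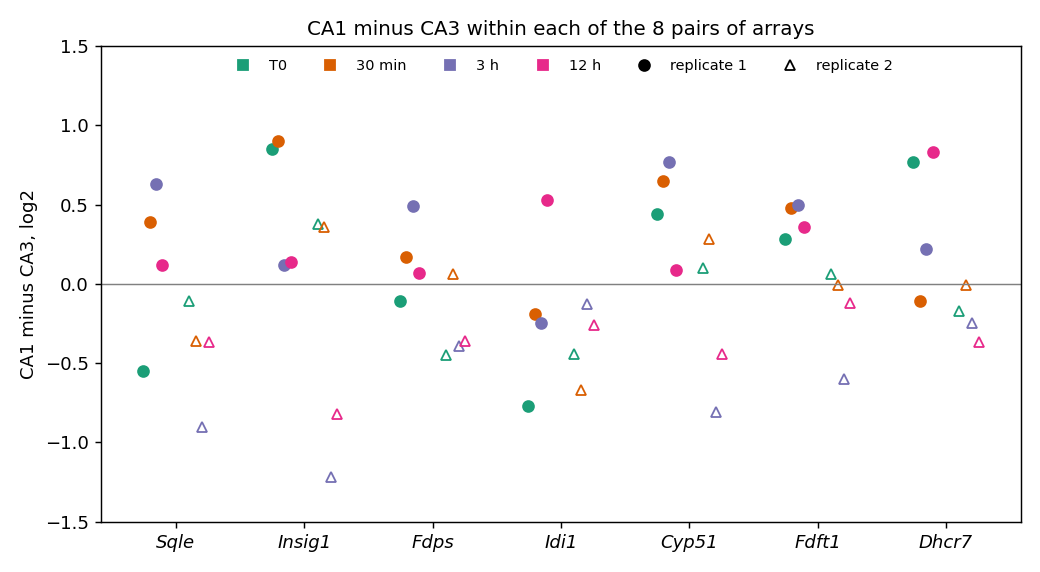
CA1 minus CA3 in log2 expression for each of the 8 pairs of arrays, by member, with filled circles for replicate 1, open triangles for replicate 2 and colours for the 4 times. For Cyp51 and Fdft1 all 4 circles lie above 0, while the triangles of 3 h and 12 h lie below it.

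The third question was whether the change over time differed between the regions, tested as the CA1 change minus the CA3 change. It passed for 0 of the 7 members at 30 min, 3 h and 12 h in limma, against 0% of all probe sets at each time, of which 133, 55 and 71 had an unadjusted p under 0.05. Insig1 had the largest difference at 3 h, where its change was 0.06 ± 0.51 in CA1 and 1.22 ± 0.51 in CA3, a difference of -1.16 ± 0.72 (limma adjusted p = 1). At 12 h its change was 0.39 ± 0.51 in CA1 and 1.35 ± 0.51 in CA3, a difference of -0.95 ± 0.72 (limma adjusted p = 1). Idi1 went the other way at 12 h, with a change of 0.55 ± 0.21 in CA1 and -0.19 ± 0.21 in CA3, a difference of 0.74 ± 0.29 (limma adjusted p = 1, unadjusted 0.03). The second probe set of Idi1 gave 0.39 ± 0.4, with a change of 0.42 ± 0.28 in CA1 and 0.03 ± 0.28 in CA3. Within the regions 0 members passed at any time. The share of all probe sets that passed was 0.0126%, 0.0063% and 0.208% in CA1 at 30 min, 3 h and 12 h, and 0%, 0% and 0.0063% in CA3.

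The members moved together only in part. Over the 16 arrays, 19 of the 21 pairs of members correlated above 0, with a median Pearson r of 0.34 and a range of -0.11 to 0.69. Sqle and Fdft1 had the highest r. With the group means removed, the median was 0.31, and Insig1 with Fdft1 (0.85) and Sqle with Fdft1 (0.83) were highest, so these genes varied together between replicates of the same group. Arrays of a pair deviate together, so the 16 points are not independent, and these values are descriptions. Replicates differed for the members by a median of 0.39, against 0.29 for all probe sets. The direction was the same in all 8 groups for 0 of the 7 members and for 9.42% of all probe sets. With 7 members, 0 is near that share.

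Outside the set, the genes whose pattern over the 16 arrays was most like the mean of the members were Gadd45a (r = 0.89), Stoml2 (0.88), Get1 (0.86), Sdhaf3 (0.84), Tgoln2 (0.83), Zfand3 (0.81), Ndufs3 (0.81), Ubac1, Suclg1 and Camlg (0.8 each). Over the 8 group means they were Rhob (0.96), followed by Spryd7, Suclg1, Usp46, Slc25a27, Mrpl1 and Htr2c (0.95 each) and Rtn3, Slc3a2 and Elp4 (0.94 each). Suclg1 is on both lists, and no other gene of the sterol pathway is on either.

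The rest of the pathway was read from lists of genes by role, of which a single gene passed the test. Among 12 measured enzymes of cholesterol synthesis outside the set, 0 passed at 30 min, 3 h and 12 h, and their medians were -0.04, -0.12 and 0.06. Msmo1, a sterol methyl oxidase, was 0.62 ± 0.37 above T0 at 12 h (limma adjusted p = 0.448), and Lss, the lanosterol synthase, 0.07 ± 0.17. Msmo1 showed the same turn between replicate numbers as the members other than Idi1. Its CA1 minus CA3 was 0.65, 0.49, 0.98 and 0.52 in replicate 1 at T0, 30 min, 3 h and 12 h. In replicate 2 it was -0.32, -0.08, -1.03 and -0.48. The turn was not general among the 12 enzymes. In means over the times, Mvd, Tm7sf2, Nsdhl and Sc5d also turned this way. Acat2, Mvk, Pmvk, Lbr and Ebp did not turn, and Lss and Hsd17b7 turned the opposite way.

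Among the genes of sterol sensing and SREBP processing, Mbtps2 fell. It encodes the site-2 protease, which cuts SREBP within the Golgi membrane and frees its active part. Its CA1 values were 7.86 and 8.103 at T0, 7.625 and 7.655 at 30 min, 7.068 and 6.692 at 3 h, and 6.946 and 7.09 at 12 h. Its CA3 values were 7.833 and 7.859 at T0, 7.232 and 7.458 at 30 min, 7.24 and 7.521 at 3 h, and 7.23 and 7.242 at 12 h. All 12 later arrays were below all 4 of T0. Taken 1 time at a time, arrays completely apart from T0 in either direction were seen in 5.55%, 6.69% and 15.6% of all probe sets at 30 min, 3 h and 12 h. The difference was -0.42 ± 0.13 at 30 min (limma adjusted p = 0.376), -0.78 ± 0.13 at 3 h (adjusted p = 0.0497) and -0.79 ± 0.13 at 12 h (adjusted p = 0.0178).

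The call of Mbtps2 is close to the threshold. In the limma fit of pair means the differences were the same and the adjusted p was 0.432 at 3 h and 0.207 at 12 h. In the fits that left out 1 array the 3 h difference ran from -0.878 to -0.69 and its call was lost in 15 of 16, being kept only without CA1 replicate 1 of 3 h (limma adjusted p = 0.0354). The 12 h difference ran from -0.848 to -0.726 and its call was lost in 5 of 16. These were the fits without CA1 replicate 2 of T0 (limma adjusted p = 0.088), CA3 replicate 2 of T0 (0.0734), CA1 replicate 2 of 12 h (0.0566), and CA3 replicate 1 (0.0575) or replicate 2 (0.0832) of 12 h. The other 8 genes of that list did not pass at any time. Srebf2, the SREBP gene of the sterol pathway, differed from T0 by 0.06 ± 0.17 at 12 h, and Insig2 by 0.59 ± 0.3 (limma adjusted p = 0.331). Srebf1, the SREBP gene linked to fatty acid synthesis, differed by -0.4 ± 0.69. It was higher in CA1 than in CA3 in 8 of 8 pairs, by 0.83 ± 0.49 on average (limma adjusted p = 1). How many of all probe sets were higher in CA1 in 8 of 8 pairs was not counted. Replicate 2 minus replicate 1 of this probe set averaged -1.46, with replicate 2 higher in 0 of 8 groups. The second probe set of Srebf1 differed by -0.13 at 12 h and by 0.23 between CA1 and CA3.

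**Figure D4:**
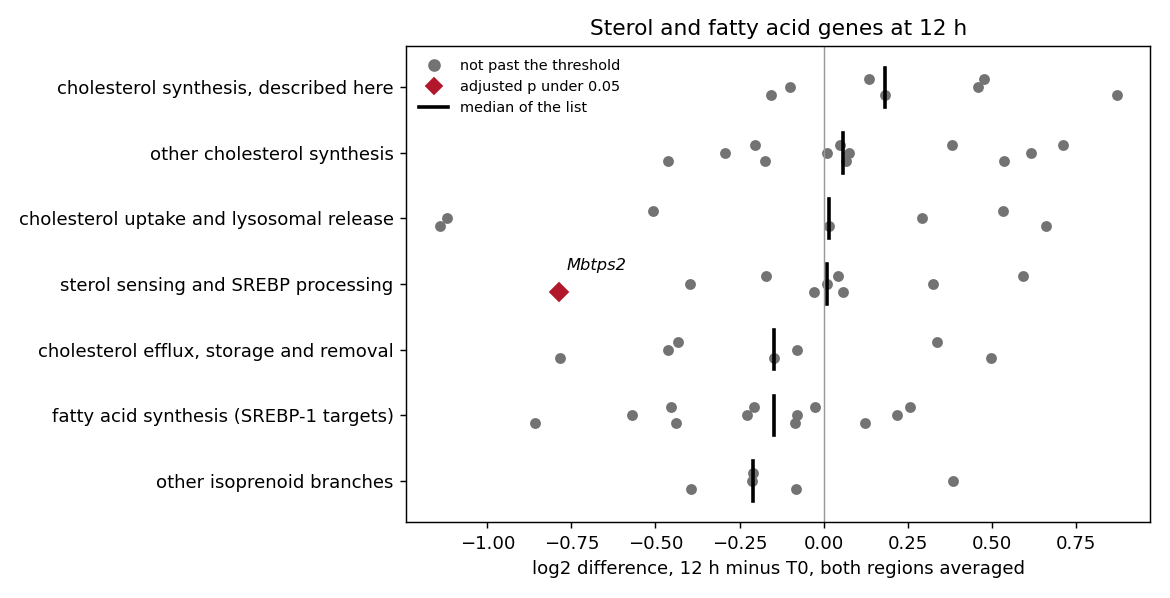
Difference in log2 expression of 12 h minus T0, averaged over both regions, for each measured gene of the cholesterol synthesis set and of 6 further lists, with black bars at the list medians. Mbtps2, at -0.79, is the single gene past the threshold.

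Uptake and lysosomal release of cholesterol were represented by 7 measured genes. Of these 0 passed, with medians of -0.11, -0.09 and 0.02 at 30 min, 3 h and 12 h. Averaged over both regions, the 2 largest differences were those of Lipa, the lysosomal acid lipase, at -1.14 ± 0.26 (limma adjusted p = 0.0554), and of Npc2, which carries cholesterol out of the lysosome, at -1.12 ± 0.29 (adjusted p = 0.0786), both at 12 h. Within CA1, Mylip, named after its values were seen, averaged 8.474 at 12 h and 6.616 at T0, a difference of 1.86 ± 0.47 (limma adjusted p = 0.172), and within CA3 it averaged 6.49 at 12 h and 7.026 at T0, a difference of -0.54 ± 0.47 (limma adjusted p = 0.92). Of 12 measured microglia markers 3 fell at 12 h, against 2.07% of all probe sets that passed in either direction, with a median of -1.82 and array means of 5.81 to 7.11 at 12 h and 7.61 to 8.06 at T0. In the limma fit of pair means these calls were lost, as 0 of all 15866 probe sets passed at 12 h (10.5% had an unadjusted p under 0.05). In these bulk samples fewer cells of a type and less RNA per cell cannot be told apart, and the part of microglia in the values of Lipa and Npc2 was not tested.

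Efflux, storage and removal genes (7 measured) had 0 passing at 30 min, 3 h and 12 h and medians of 0.07, 0.11 and -0.15. Apoe, the main lipid carrier that astrocytes release, stayed high, between 11.94 and 13.84, and differed by -0.08 ± 0.43 at 12 h. Abca1 and Cyp46a1 are not listed in the annotation and were not analysed here. The 12 fatty acid synthesis genes had 0 passing and medians of 0.08, -0.14 and -0.15, and Fasn, the fatty acid synthase, differed by -0.46 ± 0.29 at 12 h (limma adjusted p = 0.484). Among 5 genes of other isoprenoid branches 0 passed, with medians of -0.05, -0.16 and -0.21.

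Cell type markers moved over the same times. At 12 h, 2 of 8 excitatory neuron markers rose, with a median of 2.35, and 8 of 10 cell cycle markers fell, with a median of -1.31, against 2.07% of all probe sets that passed in either direction. These calls too were lost in the fit of pair means. Across the 16 arrays the mean of the members correlated with the mean of the excitatory neuron markers at r = 0.45, of the inhibitory neuron markers at 0.52, of the oligodendrocyte markers at 0.34, of the astrocyte markers at -0.07 and of the microglia markers at -0.51. For the oligodendrocyte precursor markers r was -0.07, for the endothelial and mural markers -0.6, for the fibroblast, meningeal and choroid plexus markers -0.18 and for the cell cycle markers -0.4. The part of cell composition in the members' values was not tested.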

How the data were processed

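The 16 arrays hold RNA of CA1 and CA3 at T0, 30 min, 3 h and 12 h, 2 replicates each, labelled with biotin over 2 cycles per the labels' protocols. The authors deposited log2 expression values of each probe set, computed by RMA, per the submitters' processing notes. RMA equalises the arrays, so a change stands relative to the rest of the array. No version or setting of it is given in the sources used here. The values run from 2.825 to 13.96, and array medians from 5.814 to 5.941. Array number limits the precision.

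Without 57 control probe sets, 15866 entered the tests. Of these 12783 had 1 gene in the platform annotation, 312 several and 2771 none. Matching to RefSeq (GRCr8, by Entrez ID, 12748 matched) changed 0 symbols. The probe set with the highest mean stands for a gene. Other probe sets are given for members in some of the comparisons, and outside the set for Srebf1 only. limma 3.58.1 in R 4.3.3 fitted 8 group means (8 residual degrees of freedom, prior 2.55). Adjusted p is Benjamini-Hochberg over all probe sets within a contrast. Errors after ± are standard errors unless called SD.

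Deviations from the group means correlated between both regions at the same time and number at 0.57 to 0.67 in 4 of 4 cases. Those among the 3 later times were 0.3 to 0.66 (0 of 12 under 0.1). Those with T0 were -0.24 to 0.31 (5 of 12 under 0.1), so pairing with T0 was not assumed. The main fit of group means had no term for pairs, so its errors and p-values treat the arrays of a pair as independent. In refits the regions were treated as paired by number within a time. Region contrasts were refitted on pair differences and time contrasts on pair means. Other settings were the number as a covariate, cyclic loess, median centring, a filter on dim probe sets, a trended prior, array weights, the control signal or the GAPDH difference as a covariate, left out arrays, and the mean of a gene's probe sets. Values within each replicate number and the CA1 and CA3 markers were added after the data were seen. Genes named are all members, each gene of the other pathway lists past the threshold, some preset pathway genes, and the 10 genes most alike by Pearson r. The members and lists were chosen with earlier results of these data known.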

Additional observations from a re-analysis of the deposited data

Results flagged for a closer look

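The arrays of Cyp51 at 12 h lay on opposite sides of T0 in the regions. Both CA1 arrays of 12 h (9.078 and 8.655) were below both of T0 (9.419 and 9.079). Both CA3 arrays of 12 h (8.99 and 9.097) were above both of T0 (8.975 and 8.976). The nearest arrays of 12 h and T0 almost met, at 9.078 and 9.079 in CA1 and at 8.99 and 8.976 in CA3. How many of all probe sets did the same was not counted. The changes were -0.38 ± 0.31 in CA1 and 0.07 ± 0.31 in CA3, and neither passed in limma. The CA1 change minus the CA3 change was -0.45 ± 0.44 on the log2 scale, and the limma test of this difference gave an adjusted p of 1. The second probe set of Cyp51 gave 0.02 ± 0.26.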

How the results depend on the processing

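Over 13 settings and 16 fits that left out 1 array each, members past the threshold numbered 0 in all but 1 of 251 counts. The exception was Insig1 at 12 h with the GAPDH covariate, where the count was 1 (0.984, limma adjusted p = 0.0378). The smallest adjusted p of a member over all of these was 0.0378. The replicate block (pair differences, pair means, or the number as a covariate) changed no member's call.

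The median of the members at 30 min, 0.415, moved by more than the spread between replicates (SD 0.218) to 0.0602 with the control signal as a covariate and 0.0342 without replicate 2 at 30 min and 12 h. It ran from 0.145 to 0.595 without each array in turn. With 1 array left out the region median ran from -0.0536 to 0.181, the 3 h median from -0.201 to 0.0806 and the 12 h median from 0.0485 to 0.344.

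None of the member values that changed sign had passed the test, and the cause was not tested. With the control signal as a covariate these were Sqle at 12 h (-0.566), Fdps at 30 min (-0.0498) and 12 h (-0.0216), Fdft1 at 30 min (-0.0731) and 3 h (-0.154), and Dhcr7 at 3 h (0.0236). Without replicate 2 at 30 min and 12 h they were the region differences of Sqle (0.0128) and Fdps (0.00193), and at 30 min Sqle (-0.00727), Fdps (-0.139) and Fdft1 (-0.108). Without replicate 2 at 3 h they were the region differences of Sqle (0.048) and Fdps (0.0447), and at 3 h Sqle (0.051), Fdps (0.0331) and Fdft1 (-0.1). With the GAPDH covariate they were the region difference of Insig1 (-0.0417) and Fdft1 at 3 h (-0.0399), and with cyclic loess Fdps at 3 h (0.0297).

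With 1 array left out, sign changes came in the region differences of Sqle (-0.37 to 0.0837), Insig1 (-0.0899 to 0.265), Fdps (-0.17 to 0.0399), Fdft1 (-0.0516 to 0.29) and Dhcr7 (-0.0434 to 0.27). At 30 min they came in Fdps (-0.0542 to 0.168). At 3 h they came in Sqle (-0.323 to 0.181), Fdps (-0.263 to 0.0806), Cyp51 (-0.434 to 0.00708), Fdft1 (-0.146 to 0.311) and Dhcr7 (-0.262 to 0.0972), and at 12 h in Fdps (-0.0745 to 0.344) and Fdft1 (-0.253 to 0.0512).

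Mbtps2 at 3 h lost its call with pair means (limma adjusted p = 0.432), median centring (0.0551), the filter (0.166), the trended prior (0.161) and without replicate 2 at 30 min and 12 h (0.288) or of 3 h (0.184). At 12 h it did so with pair means (0.207), the trended prior (0.0544), the control signal (0.0952) and without replicate 2 at 30 min and 12 h (0.276). Probe sets past the threshold ran from 0 to 69 at 30 min (17 in the main setting), 0 to 92 at 3 h (29), 0 to 2014 at 12 h (328), 0 to 763 in the F test (64) and 0 to 33 for the regions (0), with 0 at each time and in the F test under pair means. The filter kept 5 of the 7 members, without Insig1 and Idi1.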
